A study of Homo sapiens with 3 samples.

Results

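The expression state of vehicle-treated MDA-MB-231 cells was described from the single array of the DMSO control. MDA-MB-231 is an established human cell line, labelled as triple-negative breast cancer, and serves in many laboratories to study invasion. The cells had been seeded in 100 mm dishes, left to attach for at least 24 h, and kept with 1% DMSO, the vehicle, for 72 h. The other 2 arrays of the series, 1 each for cells kept 72 h with 10 µM CFX or 10 µM Mt-CFX (the series title names ciprofloxacin), are given only as values beside those of the control. The labels name 1 sample a group, state DMSO for the control alone, and do not tell how many dishes went into an array. No culture without DMSO was analysed here, so the line's own state and any effect of 1% DMSO cannot be told apart.

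Genes were chosen by their level, a log2 RMA value, on the control array. Of 53617 probe sets 16098 had a gene name, and these stood for 14884 genes of every type. The genes ranked were the 11916 protein-coding ones, each taken at its highest probe set. The high class was the top 5% of them, 596 genes (5.0% of those ranked), and began at a level of 8.27. The background level was 3.89, the median of all probe sets over the 3 arrays, and 3099 genes (26.0%) lay under it. The remaining 8221 genes lay between. List counts below are to be read against these shares of 5.0% and 26.0%. The genes just inside the high class were UBTD2, NOB1 and TEX10 at 8.28, 8.27 and 8.27 and FTSJ3 and DIS3 at 8.27, and those just outside were CPT1A, HJURP and SUMF2 at 8.27 and YES1 and AFG3L2 at 8.27 and 8.26. Just above the background level were TMEM132B and CCDC85A at 3.90 and CD37, CNTFR and VMO1 at 3.89, and just below it were ACTL8 at 3.89 and GPR179, KRTAP19-5, DMRT3 and MYB at 3.88. Neighbours at either limit thus differed by far less than any error that could be assigned.

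A single array has no spread between replicates, so levels describe this culture without a test. Probe sets also differ in how well they bind their target, so a level places a gene on the array and is no measure of its transcripts against those of another gene. The 487 genes with several probe sets show the size of this: their highest and lowest probe sets differed by a median of 1.31 log2 (quartiles 0.54 and 2.44). Of the 38 high genes with several probe sets, 5 were still in the high range at their lowest probe set and 5 were under the background level there. Exact ties were frequent as well. Of the genes under background 82.1% shared their value with another gene, 155 genes of the table standing at exactly 2.59, against 6.88% of the high class, so small differences among low genes were not read. Equal values on all 3 arrays were frequent too, for 72.8% of genes under background and 14.8% of the high class. Such equality was not read as a repeat measurement.

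**Figure D1:**
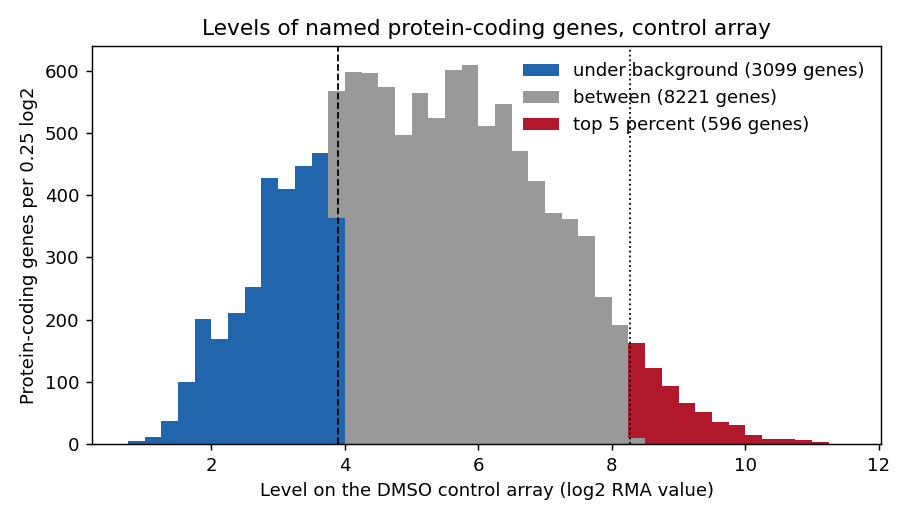
Levels of the 11916 named protein-coding genes on the DMSO control array (log2 RMA value, x axis), as genes per bin of 0.25 log2 (y axis, stacked by class). The dashed line is the background level of 3.89 and the dotted line the start of the top 5% at 8.27; the high class is the long right tail, which reaches 11.2.

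As background, breast epithelium has an inner luminal layer, which can respond to oestrogen and makes milk, and an outer basal layer that contracts. Cells that undergo epithelial-mesenchymal transition (EMT) lose cell junctions and gain vimentin, fibronectin and motility, and cell lines of the claudin-low kind, to which MDA-MB-231 is usually assigned, resemble the end of that path. Promoters of broadly used genes are commonly rich in CpG dinucleotides, whereas many tissue-restricted genes have CpG-poor promoters, some with a TATA box.

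That contrast was visible in these data, and it used nothing of the rule that set the classes. RefSeq promoter windows (GRCh38.p14) were matched by gene ID for 9707 of the genes (81.5%), and the 250 bases before the start were read. The median number of CpG was 23.0 in 525 promoters of high genes (quartiles 17.0 and 30.0), 20 in 6772 promoters of genes between the limits and 7.0 in 2410 promoters of genes under background (quartiles 2.0 and 19.0), against 19.0 over all. A GC box (GGGCGG on either strand) was found in 73.1%, 66.7% and 39.7% of these promoters, against 60.3% over all. TATAAA, searched on the gene's strand in the last 50 bases, was found in 2.86% of high genes, 1.98% of the middle class and 8.34% of genes under background, against 3.61% over all. The quartiles of the high and low classes overlapped, so single genes of either class could have either kind of promoter. Along the array the change lay at its low end: the median was 16 CpG for levels between 3.89 and 5 and from 20.5 to 23.0 in each bin above that. TATAAA was frequent in some families. It was held by 35 of 70 promoters of keratin-associated protein genes and 14 of 32 of keratin genes. Of late cornified envelope and small proline-rich genes 13 of 24 held it, and 8 of 19 of S100 genes. Most members of the first 3 families were under background. Lists mostly above background held it too, 6 of 14 metastasis and 9 of 35 cytokine and growth factor promoters. Over all genes 350 promoters held it, so these families carry only a part. None of the 14 synthetase or 33 kinesin promoters held it (0 in each).

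The promoters below show the contrast and its exceptions. They are the highest genes of the mesenchymal, basal and fatty acid synthesis lists and the lowest of the mesenchymal, basal and milk lists that had a promoter in the RefSeq table, and capitals mark CG pairs and TATAAA. They belong to AXL (chr19:41218973-41219222, plus strand), EGFR (chr7:55018767-55019016, plus strand), ACLY (chr17:41919023-41919272, minus strand), TWIST2 (chr2:238847835-238848084, plus strand), KRT5 (chr12:52520395-52520644, minus strand) and CSN2 (chr4:69965729-69965978, minus strand), all in GRCh38.p14, written 5′ to 3′ on the gene's strand.
AXL: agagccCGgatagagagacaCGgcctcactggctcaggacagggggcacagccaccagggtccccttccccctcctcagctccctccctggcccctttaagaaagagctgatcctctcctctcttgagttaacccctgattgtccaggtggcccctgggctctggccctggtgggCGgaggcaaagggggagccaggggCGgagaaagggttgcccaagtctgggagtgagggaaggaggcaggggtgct
EGFR: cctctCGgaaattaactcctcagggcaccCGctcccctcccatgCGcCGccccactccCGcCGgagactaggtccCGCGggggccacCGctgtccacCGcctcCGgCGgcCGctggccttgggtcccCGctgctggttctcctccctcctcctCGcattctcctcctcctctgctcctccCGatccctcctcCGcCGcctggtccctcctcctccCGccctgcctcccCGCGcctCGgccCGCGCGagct
ACLY: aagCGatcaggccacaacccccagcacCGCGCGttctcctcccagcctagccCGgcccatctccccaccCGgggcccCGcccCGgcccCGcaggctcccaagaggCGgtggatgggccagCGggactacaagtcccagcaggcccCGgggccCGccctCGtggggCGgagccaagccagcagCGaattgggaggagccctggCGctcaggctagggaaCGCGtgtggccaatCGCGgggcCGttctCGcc
TWIST2: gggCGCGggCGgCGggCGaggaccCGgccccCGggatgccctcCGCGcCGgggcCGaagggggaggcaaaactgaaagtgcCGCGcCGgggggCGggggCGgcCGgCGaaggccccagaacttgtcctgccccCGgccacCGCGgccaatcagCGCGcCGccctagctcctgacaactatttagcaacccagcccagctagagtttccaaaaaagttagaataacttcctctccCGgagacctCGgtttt
KRT5: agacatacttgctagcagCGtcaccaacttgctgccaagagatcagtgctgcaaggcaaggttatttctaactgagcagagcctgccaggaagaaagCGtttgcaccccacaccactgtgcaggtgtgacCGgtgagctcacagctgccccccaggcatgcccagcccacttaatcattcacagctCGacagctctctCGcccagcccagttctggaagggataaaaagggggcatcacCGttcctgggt
CSN2: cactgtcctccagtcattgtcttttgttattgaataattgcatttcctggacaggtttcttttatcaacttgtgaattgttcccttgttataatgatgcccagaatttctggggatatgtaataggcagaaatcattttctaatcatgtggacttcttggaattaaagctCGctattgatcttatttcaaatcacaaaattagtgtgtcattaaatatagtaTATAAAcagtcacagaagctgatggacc

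EGFR and ACLY, both in the high class, held 25 and 23 CpG. CSN2, the beta-casein gene of milk, held 1 CpG and a TATAAA that began 28 bases before the start, and KRT5, a basal keratin gene, held 6 CpG and no TATAAA in that window. The other pair goes the other way: AXL, in the high class, held 4 CpG, and TWIST2, an EMT transcription factor under background, held 26. A match is a run of letters and no proof of a bound site.

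**Figure D2:**
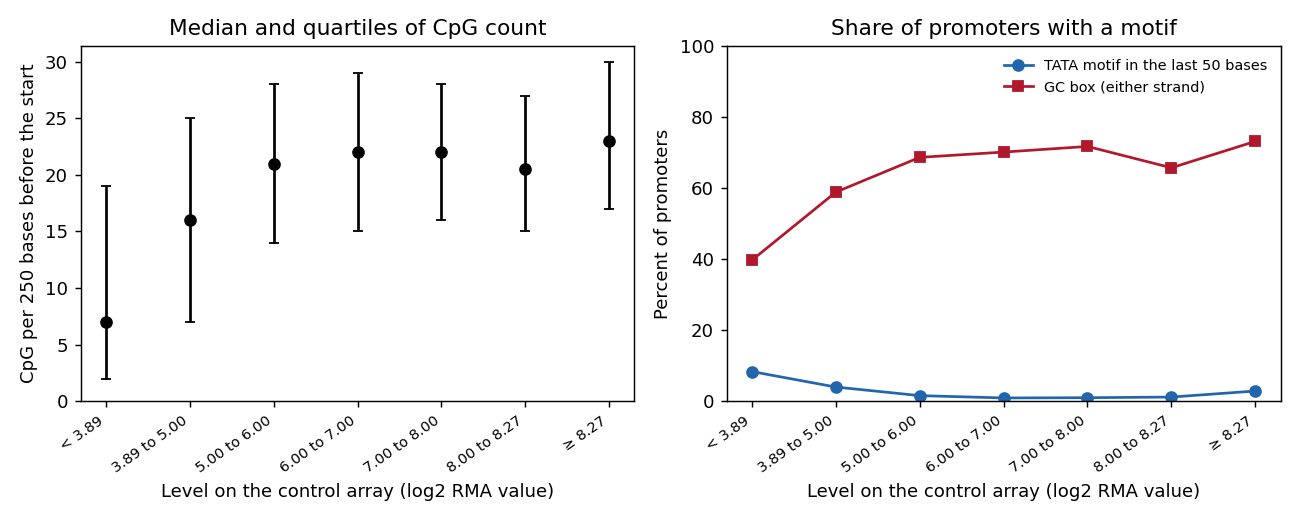
Left, CpG per 250 bases before the start (y axis) by level on the control array (x axis, log2 RMA bins), points at the median and bars from the lower to the upper quartile of promoters. Right, percent of promoters (y axis) with TATAAA in the last 50 bases or a GC box, in the same bins. Genes under 3.89 have the lowest median, 7.0 CpG, and the largest share with TATAAA, 8.34%.

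At the top of the array stood genes of protein synthesis, protein folding, nuclear transport and the cell cortex. The 20 highest were RPL12, RPL41, RPS28 and RPS15 of the ribosome, the elongation factor gene EEF2, CALR and CANX, which encode lectin chaperones of the endoplasmic reticulum (ER), the ER selenoprotein gene SELENOF, TMSB10, which binds actin monomers, MSN, which ties actin to the membrane, CSE1L and KPNB1 of nuclear transport, the mitochondrial chaperone gene HSPA9, TOP2A, the splicing regulator PTBP1, the receptor tyrosine kinase gene AXL, BSG, which encodes basigin, TM9SF3, the oxidase subunit gene COX6A1 and OAZ1, an inhibitor of polyamine synthesis. RPL12 stood at 11.24 and OAZ1 at 10.51. COX6A1 stood at 10.55 at its highest probe set and at 3.15 at its lowest, and RPL41 at 10.89 and 5.63. All of these genes were also in the high class on the CFX and Mt-CFX arrays.

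Cytosolic aminoacyl-tRNA synthetases, which charge tRNAs, had 9 of 17 measured members in the high class (52.9%, against 5.0% of all genes) and 0 under background, with a median of 8.91. TARS1 stood at 9.91 and AARS1 at 9.67, and the lowest were HARS1 at 6.11 and WARS1 at 6.05. Of 53 cytosolic ribosomal protein genes 12 were high and 1 was under background, RPL10L at 2.59, a paralogue best known from testis. Their median was 6.80, and RPL31 stood at 3.94, so the family spread over most of the array's range, and near-identical pseudogenes make the level of single members uncertain. Among 29 translation factor genes 6 were high and 0 were under background, from EEF2 at 10.85 to EIF5AL1 at 3.91. Of 74 mitochondrial ribosomal protein genes only MRPS10, at 8.46, was high, and 0 were under background.

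Heat shock genes had 7 of 16 members in the high class, among them HSPA9 at 10.75, the small heat shock protein gene HSPB1 at 9.95, HSPA1B at 9.53 and HSPD1, which encodes a mitochondrial chaperonin, at 8.78. HSPA1A and HSPA1B are nearly identical and cannot be told apart with safety. At the other end HSPB3 stood at 2.59 and HSPA6 at 3.98. Splicing and hnRNP genes had 19 of 78 members high and 11 under background, led by SRSF1 at 9.98, HNRNPUL1 at 9.77 and HNRNPM at 9.64, with SRSF12 at 1.45 and HNRNPCL1 at 1.54.

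Further families came into view only when the high class was read, so their counts are a description of a choice made on these values. In the list of ER folding, translocation and glycosylation genes 22 of 33 members were high and 0 were under background, including CALR at 11.07, SELENOF at 10.78, CANX at 10.52, the translocon gene SEC61A1 at 9.65 and the oligosaccharyltransferase genes DAD1 and RPN2 at 9.79 and 9.44. Of 25 genes of ARF GTPases, vesicle coats and cargo receptors 11 were high, such as TM9SF3 at 10.55 and ARF6 at 9.61. Nucleoporin genes had 10 of 26 members high and 0 under background, with SEH1L at 9.82 and NUP153 at 9.53. Nuclear transport receptors had 7 of 22 high and 1 under background, KPNA7 at 2.39, an importin known from oocytes and early embryos. DEAD and DEAH box RNA helicases had 10 of 47 high, with DDX5 at 10.00, and 4 under background, where DDX4, a germ cell helicase, stood at 2.19.

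Many genes of cell division were in the high class. Of 24 mitosis genes 11 were in the high class and 0 under background, with a median of 8.08. TOP2A, the mitotic topoisomerase, stood at 10.67, the proliferation marker MKI67 at 9.73, the kinesin gene KIF11 at 9.60 and the kinase gene PLK1 at 9.16. The lowest were CENPA at 6.19 and PTTG1 at 5.21. In the replication list 5 of 16 were high, MCM7 at 8.69, PCNA at 8.44, MCM3 and MCM4 at 8.39 and UHRF1 at 8.28, and 0 were under background. Of the topoisomerases, the enzyme class that fluoroquinolones inhibit in bacteria, TOP2A, TOP1 at 9.02 and TOP2B at 8.29 were high, TOP3A stood at 7.06 and TOP3B at 5.64, and SPO11, the meiotic member, stood at 1.80.

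**Figure D3:**
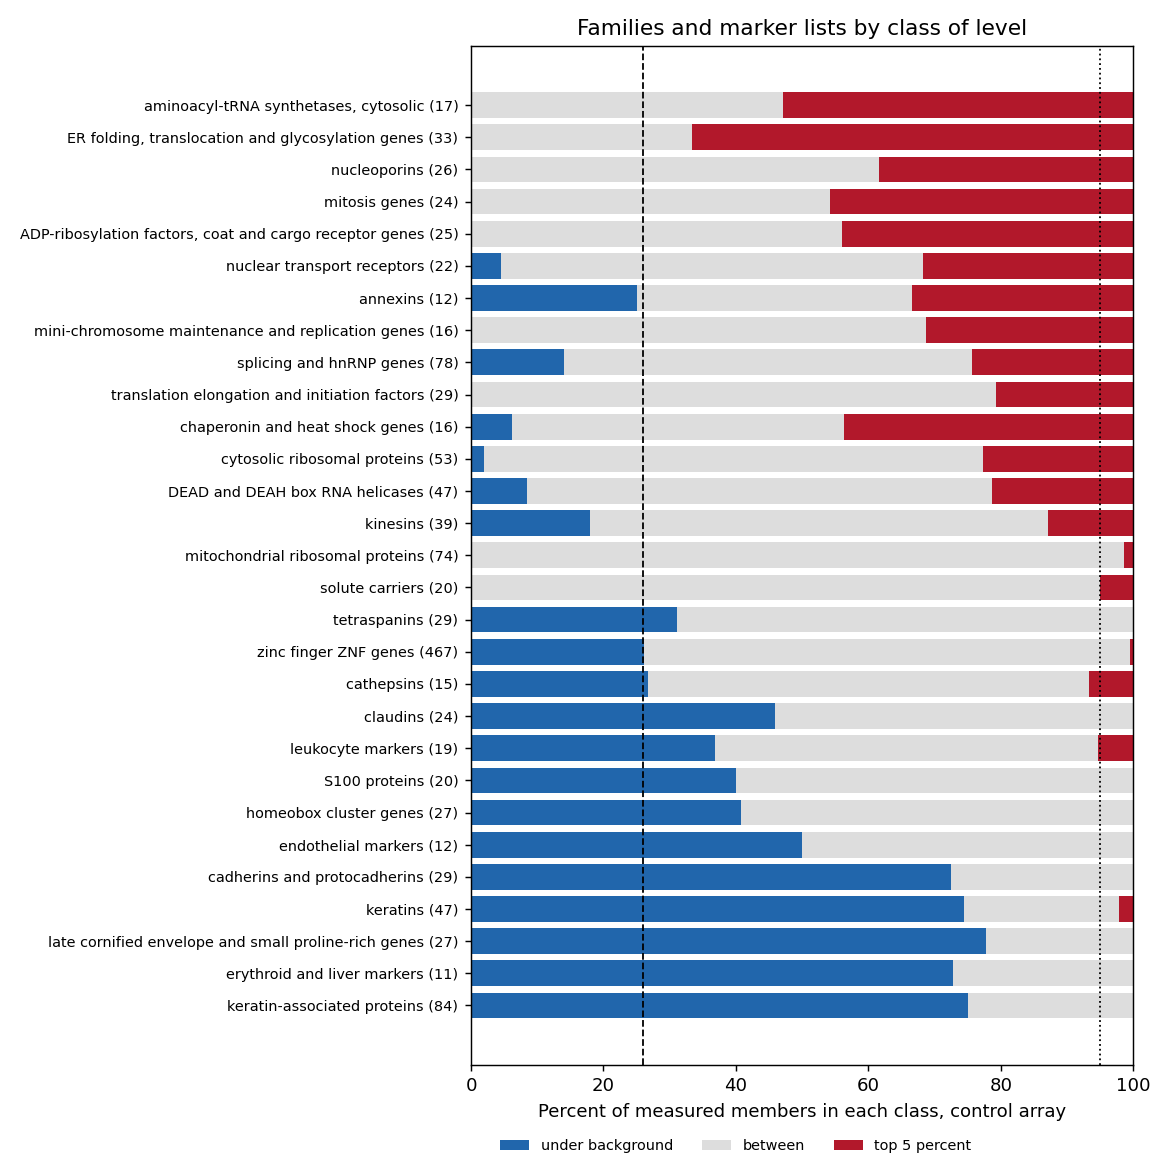
Percent of measured members (x axis) in the high class (red), between (grey) and under background (blue) on the control array, for families and marker lists with 10 or more measured members (number in brackets), ordered by median level. The dashed line marks the 26.0% of all genes under background and the dotted line the 5.0% in the high class. Synthetases, ER genes and nucleoporins lie at the top, with medians of 8.91, 8.74 and 8.15, and keratin-associated proteins at the bottom with 2.89. The ER and nucleoporin lists are among 5 families added after the high class was read, so their place follows from that choice.

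The oestrogen, progesterone and prolactin receptor genes and the measured milk genes lay under background in this culture. In bulk RNA, fewer cells with a transcript and less RNA per cell cannot be told apart. Of 28 measured luminal genes 2 were high and 11 under background, the latter 39.3% against 26.0% of all genes, with a median of 4.30. The progesterone receptor gene PGR stood at 2.39 on all 3 arrays. The oestrogen receptor gene ESR1 stood at 3.81, with 3.92 on the CFX array and 3.81 on the Mt-CFX array, so it lay close to the background level throughout. ERBB4 and the prolactin receptor gene PRLR stood at 3.45 and 2.81, and AGR3, an ER protein gene of luminal cells, at 1.18. All 9 measured milk and secretory genes lay under background, between CSN2 at 1.90 and LPO at 3.45. ERBB2 had no named probe set here, so the third receptor that defines triple-negative disease was not analysed here.

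Luminal genes were not uniformly low. IGFBP4, which binds insulin-like growth factors, stood at 10.11 on the control array, 9.96 on the CFX array and 8.82 on the Mt-CFX array. KRT18, a keratin of simple epithelia, stood at 8.36 at its highest probe set and 5.72 at its lowest, and its partner KRT8 at 5.83. KRT19 and KRT7 stood at 6.12 and 5.74, XBP1, a secretory transcription factor, at 7.16 and SPDEF, an ETS factor of luminal cells, at 6.33. GATA3 and FOXA1, regulators of luminal identity, stood at 5.52 and 4.36. The keratin-associated proteins of hair offer a scale for such middling values: 63 of 84 were under background and the 95th percentile was 5.68, so levels of GATA3, FOXA1, ERBB3 (4.24), TFF1 (4.46) and AGR2 (4.25) were no higher than those some hair genes reached. Whether any hair gene is transcribed in this line was not tested, so the scale, and its highest member above all, is a rough one.

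Of 13 measured basal genes 2 were high, EGFR at 9.82, a growth factor receptor, and SFN, which encodes 14-3-3 sigma, at 8.40. Basal keratins were not high: KRT5 stood at 2.59, KRT14 at 3.00 and KRT15 at 3.81, all under background, with KRT16 at 4.64. SLPI, a protease inhibitor, stood at 1.99, TRIM29 at 2.83 and TAGLN, an actin-binding gene of contractile cells, at 2.92. Over the keratin family as a whole 35 of 47 members (74.5%) were under background and KRT18 was the 1 member in the high class.

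Epithelial genes ranged from the high class to far under background. Of 32 measured members 2 were high (6.25%, against 5.0% of all genes) and 11 under background (34.4% against 26.0%). The median was 4.69. Of the desmosome and scaffold genes, DSG2 at 8.73 and the tight junction scaffold TJP1 at 8.49 were high, and PKP2 at 7.70, DSP at 7.45, DSC2 at 6.80, JUP at 6.20, PKP3 at 5.41 and TJP3 at 4.08 lay between the limits. The highest hair gene, KRTAP2-3, stood at 7.24. DSC3, DSG3 and PKP1, the forms of stratified epithelia, stood at 3.36, 3.03 and 3.59, under background. The claudins 3, 4 and 7, whose low expression gives the claudin-low subtype its name, stood at 5.52 (CLDN3), 5.28 (CLDN4) and 5.49 (CLDN7), with the adhesion gene EPCAM at 5.37 and CD24 at 5.47. They were above the background level and below 5.68, so the array places them in neither clear group. Of the regulators of epithelial splicing and identity, ESRP1 at 3.00, GRHL2 at 3.65, OVOL1 at 3.84 and EHF at 3.45 were under background, and ESRP2 at 4.02 and OVOL2 at 4.16 just above it. Claudins as a family had 0 of 24 members high and 11 under background (45.8%, against 26.0% of all genes). CLDN1 was highest at 6.02 and CLDN17 lowest at 1.10. E-cadherin and N-cadherin (CDH1, CDH2) had no named probe set here. The 29 other members measured were protocadherins, apart from CDH26 at 4.24 and CDH23 at 3.53. Of these 29 genes 21 were under background, PCDH7 being highest at 4.75, and they do not stand for E-cadherin or N-cadherin.

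Mesenchymal genes had 6 of 29 measured members in the high class (20.7%, against 5.0% of all genes) and 6 under background (20.7% against 26.0%), with a median of 5.90. AXL stood at 10.97 on the control array, 10.93 on the CFX array and 10.86 on the Mt-CFX array. MSN followed at 10.75, the tetraspan membrane gene EMP3 at 10.46, CCN2, a matricellular growth factor, at 10.12 with a lowest probe set at 4.42, the intermediate filament gene VIM at 9.17 and fibronectin, FN1, at 8.78. VIM stood at 9.17 on all 3 arrays and at 7.56 at its lowest probe set, and FN1 went from 8.78 to 8.52 and 8.05 on the CFX and Mt-CFX arrays. Among the EMT transcription factors ZEB1 stood at 6.38, SNAI2 at 6.22, ZEB2 at 5.32 and SNAI1 at 4.63, while TWIST1 and TWIST2 were under background at 3.06 and 3.45. LUM and DCN, small matrix proteoglycans of fibroblasts, stood at 1.73 and 1.90. CD44, the hyaluronan receptor often read against CD24, stood at 7.65. S100A4, a calcium-binding protein often linked to EMT, stood at 4.24. On the scale of hair genes, ZEB2, SNAI1 and S100A4 lay under the 95th percentile of 5.68, so they are in doubt as well. ZEB1 and SNAI2 lay above it and below the highest hair gene, KRTAP2-3 at 7.24.

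**Figure D4:**
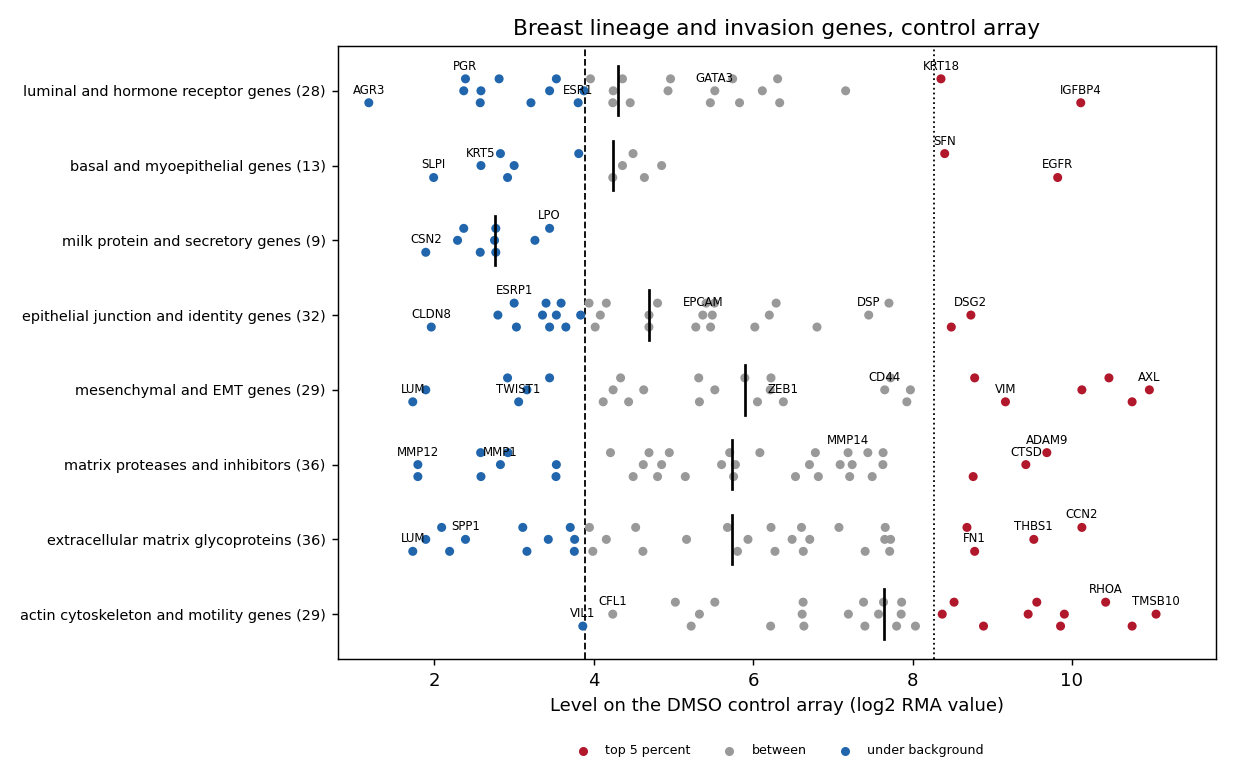
Levels on the control array (x axis, log2 RMA value) of every measured member of 8 breast lineage and invasion lists (number in brackets), 1 point a gene; black bars are list medians, the dashed line is the background level of 3.89 and the dotted line the start of the high class at 8.27. Vertical position within a row only separates points; milk genes lie wholly under background, from 1.90 to 3.45, while AXL at 10.97 and TMSB10 at 11.05 lie far to the right.

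Among 36 genes of matrix proteases and their inhibitors 3 were high and 8 under background, shares of 8.33% and 22.2% that lay near those of all genes. The high members were the membrane sheddases ADAM9 at 9.68 and ADAM10 at 8.76 and the lysosomal protease gene CTSD at 9.42. MMP14, the membrane protease that activates other matrix metalloproteinases, stood at 7.19, and the inhibitors TIMP1, TIMP2, TIMP3 and TIMP4 at 7.21, 7.44, 7.09 and 6.78. Of the secreted metalloproteinases measured, MMP1 at 2.83, MMP13 at 2.59, and MMP10 and MMP12 at 1.80 were under background, and MMP19 at 4.69 and MMP11 at 4.21 were above it. MMP2, MMP9, PLAU, PLAUR and CAV1 had no named probe set here. Of 15 measured genes from lists of metastasis genes drawn up in derivatives of this line, CCN2 and FGF5, a fibroblast growth factor, were high, FGF5 at 9.26. EREG, an EGFR ligand, stood at 8.17, IL11 at 5.93 and PTGS2 at 5.03, and CXCR4, VCAM1, MMP1 and SPP1 were under background at 3.45, 3.16, 2.83 and 2.39.

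The extracellular matrix list had 4 of 36 members high (11.1%, against 5.0% of all genes) and 11 under background (30.6% against 26.0%). Its high members were CCN2, the thrombospondin gene THBS1 at 9.52, FN1, and the syndecan SDC4 at 8.68. THBS1 stood at 9.31 on the CFX array and 8.38 on the Mt-CFX array. Fibrillin 1 (FBN1) stood at 7.72, while FBN2, NID2, GPC3 and VCAN stood at 3.16, 3.11, 2.19 and 2.09. Motility genes of the actin cytoskeleton had the most members in the high class of the invasion lists, 10 of 29 (34.5%), with 1 under background, VIL1, the villin of brush borders, at 3.86. The high members were TMSB10 at 11.05, MSN, RHOA at 10.42, EZR at 9.90, VCL at 9.86, PFN1 at 9.56, ACTR3 at 9.45, TPM4 at 8.89, DIAPH1 at 8.52 and LASP1 at 8.37. They cover actin monomer binding, membrane linkage, a small GTPase, focal adhesion, nucleation and filament coating. Annexins, which bind membranes in the presence of calcium, had 4 of 12 members high, ANXA5 at 10.04, ANXA1 at 9.61, ANXA6 at 8.59 and ANXA7 at 8.46, and 3 under background, ANXA9, ANXA10 and ANXA13 at 3.41, 3.06 and 2.29. S100 genes had 0 of 20 high, from S100A10 at 7.32 to S100G at 1.54.

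Growth factor receptors and RAS pathway genes had 5 of 35 members high and 6 under background. AXL, EGFR and MET, the hepatocyte growth factor receptor at 9.10, were the high receptors, with EPHA2 at 8.12 and IGF1R at 7.53 below them. The other high members were feedback inhibitors of this pathway, DUSP6 at 9.30 and SPRY4 at 8.87, with DUSP4 at 7.63. KIT, FLT1, FGFR2, FGFR4, ERBB4 and KDR were under background at 2.59, 2.95, 3.00, 3.38, 3.45 and 3.59. NF1 stood at 7.06, NF2 at 6.80, MYC at 7.06, CCND1 at 8.04 and the retinoblastoma gene RB1, the 1 high member of 17 tumour suppressors and oncogenes, at 8.85.

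CDKN2A, the gene of p16 and p14ARF, was the only member of that list under background, at 3.43 on the control array and 3.40 on both others. This line is known to lack the CDKN2A locus. The genes around it were read in the order of the RefSeq table for chromosome 9, because the sources used here give no build for the array. From HACD4 through KLHL9, MTAP and CDKN2A to DMRTA1 all 5 measured genes lay under background, at 2.39, 2.83, 3.06, 3.43 and 3.36. The ends of this run were set where the values turned, so its share cannot be weighed against the 26.0% of all genes. MTAP, an enzyme of the methionine salvage pathway, stood at 3.06 on all 3 arrays. Such equality is no repeat measurement, since 72.8% of genes under background had the same value on all 3. The next measured genes were FOCAD and ACER2 on one side at 4.80 and 3.79 and TUSC1, CAAP1, PLAA and IFT74 on the other at 5.10, 6.96, 7.86 and 5.91, followed by LRRC19 at 1.67. Of the 25 measured genes read around CDKN2A, itself included, 12 were under background, so genes under background were frequent outside the run too. Many genes between them, the interferon cluster among them, had no named probe set here. The run was noticed after the values were seen, and whether a deletion accounts for it was not tested.

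Of 50 measured genes for cytokines, chemokines and growth factors 3 were high and 14 under background (28.0% against 26.0%). The high members were FGF5, the WNT antagonist DKK1 at 8.36 and the cytokine MIF at 8.32. EREG at 8.17, IL18 at 7.79, PDGFC at 7.71, HBEGF at 7.66, LIF at 7.20 and CCL2 at 7.11 stood below them. CCL2 stood at 6.70 on the CFX array and 3.76 on the Mt-CFX array. CXCL8, the neutrophil chemokine, stood at 3.53, CXCL10 at 1.60, and HGF, the MET ligand, and CCL7 at 1.54, while IL6 and CXCL1 had no named probe set here.

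Of 190 measured members of the 10 metabolism lists 27 were high (14.2% against 5.0%) and 18 under background (9.47% against 26.0%). Among those under background were forms known from single tissues. In glycolysis the testis lactate dehydrogenase LDHC stood at 2.29 and the hexokinase HK3 at 2.89, with LDHB at 7.79, LDHA at 6.64, HK1 at 6.91 and HK2 at 6.89 between the limits. GPI, the isomerase of the second step, was the 1 high member of 12, at 9.76. PKM, SLC2A1 and FBP1 had no named probe set here. Of the gluconeogenesis and glycogen list PCK1 and the liver glycogen synthase GYS2 were under background at 3.06 and 2.59, and the mitochondrial PCK2 stood at 6.10.

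In the respiratory chain list 5 of 21 measured members were high. They were COX6A1 at 10.55, COX8A at 9.53, COX4I1 at 9.38, UQCRC2 at 9.13 and COX5A at 8.87. That list named 44 genes for complexes II to V. Those measured were all COX genes, UQCR genes or CYC1, which stand for complexes III and IV. No subunit gene of complex II or V was measured, so the share does not describe the whole chain. The 2 members under background, COX8C at 1.67 and COX6B2 at 2.83, are forms known from testis. COX7A1 at 3.97, COX6A2 at 4.56 and COX4I2 at 4.75, forms known from muscle or lung, were above background and under the 95th percentile of hair genes, as were general subunits such as UQCRB at 4.80, COX6C at 5.07 and COX7A2 at 5.35. Of the 28 genes in the list of the TCA cycle and pyruvate dehydrogenase 10 were measured, and all 10 were above background. They ran from IDH3A at 5.49 to OGDH, the oxoglutarate dehydrogenase, in the high class at 8.51. PDHA1, PDHB and DLAT among them belong to pyruvate dehydrogenase. Of the cycle itself the measured members covered only citrate synthase, isocitrate dehydrogenase and oxoglutarate dehydrogenase. The 10 measured genes of fatty acid oxidation and ketone bodies were also all above background, from ACAA1 at 5.03 to CPT1A, which admits fatty acids to mitochondria, at 8.27, the first gene outside the high class. Like IDH3A, CPT1C at 5.55, CPT2 at 5.43, ECI2 at 5.41, PPARA at 5.10 and ACAA1 lay under the 95th percentile of hair genes. These levels are in doubt.

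Lipid synthesis was represented at the top by ACLY, which makes cytosolic acetyl-CoA, at 9.84, the desaturase gene SCD at 8.80 (3.77 at its lowest probe set) and the acyl-CoA synthetases ACSL4 and ACSL5 at 8.45 and 8.37. These were 4 of 23 measured members. FASN, the fatty acid synthase gene, stood at 7.72. Among the elongases ELOVL1 stood at 7.69, ELOVL5 at 7.08, ELOVL6 at 6.48 and ELOVL7 at 5.61, with ELOVL2, ELOVL3 and ELOVL4 under background at 2.71, 2.58 and 2.39. In cholesterol synthesis and uptake 0 of 20 members were high and 1 was under background, IDI2 at 2.95, with MSMO1 highest at 7.94.

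Amino acid and polyamine enzymes had 4 of 23 members high, PSAT1 of serine synthesis at 9.95, the spermidine and spermine synthases SRM and SMS at 9.73 and 9.04, and ODC1, the first enzyme of polyamine synthesis, at 8.64. PSAT1 stood at 10.35 and 10.96 on the CFX and Mt-CFX arrays. PHGDH, the first enzyme of the serine path, stood at 7.25 and ASNS at 7.64. Under background were MTAP and OTC, the urea cycle enzyme of liver, at 1.70. Nucleotide synthesis had 6 of 27 members high and 0 under background, TYMS at 9.57, ATIC and TKT at 8.53, IMPDH2 at 8.46, GMPS at 8.32 and RRM1 at 8.31.

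Of 36 antioxidant genes 6 were high, thioredoxin (TXN) at 10.38, the peroxiredoxins PRDX1, PRDX6 and PRDX3 at 10.01, 9.35 and 8.90 and the metallothioneins MT1X and MT2A at 8.92 and 8.83. The 5 under background were the glutathione transferases GSTM1, GSTM2 and GSTA1 at 2.77, 3.76 and 3.28 and the peroxidases GPX2 and GPX7 at 3.16 and 3.58. GSTM1 is missing from the genome of many people, and its close relatives can share probes with it. GSTP1 stood at 5.92, HMOX1 at 4.99 and TXNRD1 at 7.42.

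**Figure D5:**
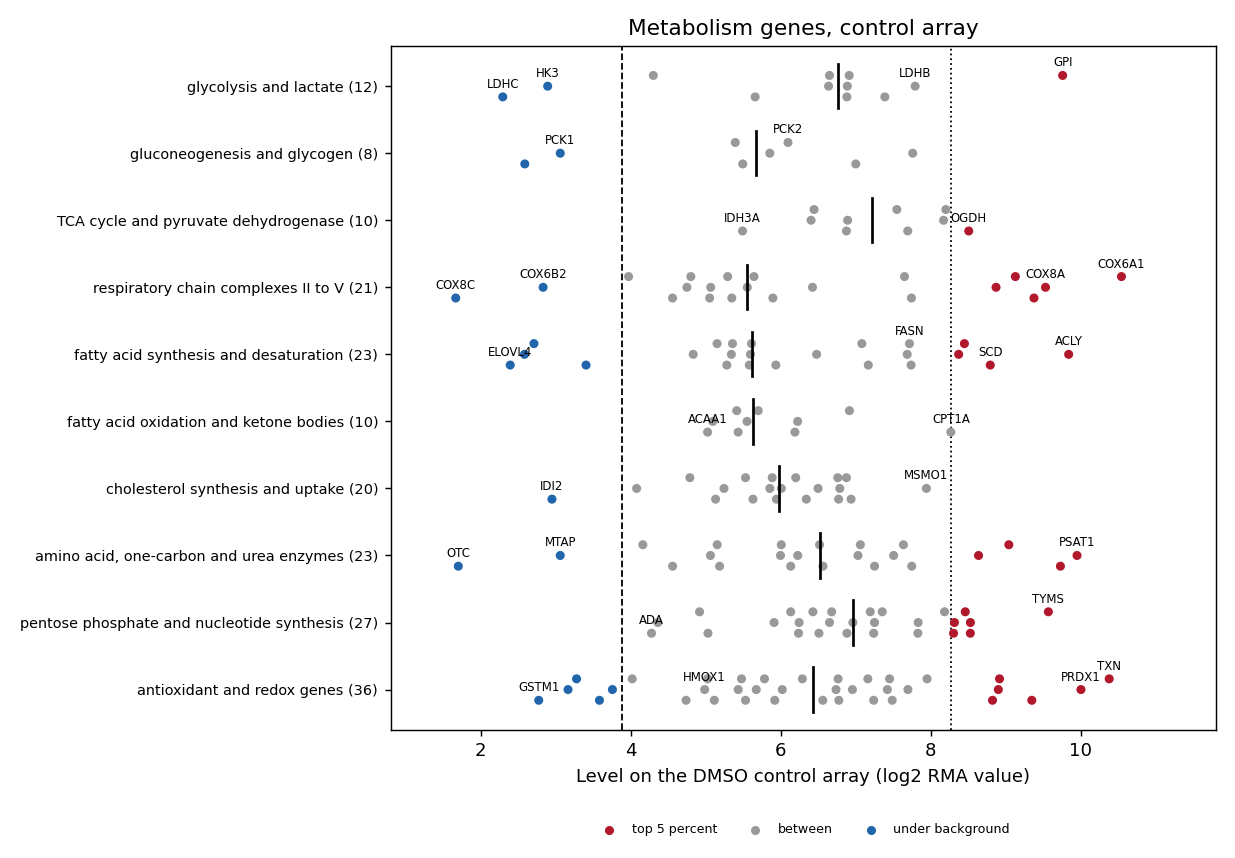
Levels on the control array (x axis, log2 RMA value) of every measured member of the 10 metabolism lists (number in brackets), 1 point a gene, drawn as in the plot of lineage genes, with list medians as black bars. Points under the dashed background line of 3.89 include LDHC at 2.29, PCK1 at 3.06, COX8C at 1.67 and OTC at 1.70, and those beyond the dotted line at 8.27 include COX6A1 at 10.55 and TXN at 10.38.

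In the 6 marker lists of other cell types CD68 was the 1 member in the high class, and whether other cells contributed was not tested. Of 19 leukocyte markers 7 were under background (36.8%, against 26.0% of all genes) and 1 was high (5.26% against 5.0%). Those under background included CD14 at 3.28, LYZ at 1.99 and CD28 at 1.99. The high one was CD68, a lysosomal membrane protein gene, at 9.37. CD4, CD8A and LCK stood at 4.24, 5.03 and 4.34, and PTPRC had no named probe set here. Of 12 endothelial markers 6 were under background, including PECAM1 at 2.59 and VWF at 3.45, and ESAM, an adhesion molecule, stood at 7.08. Fibroblast and pericyte markers reached at most 4.69 (MCAM) over 9 genes. Adipocyte markers had 4 of 7 under background, with PPARG highest at 6.68, neuronal and glial markers 3 of 9, with MBP highest at 5.88, and erythroid and liver markers 8 of 11, with APOA1 highest at 4.50. Late cornified envelope and small proline-rich genes of skin had 21 of 27 under background. Of 9 cancer-testis genes 7 were under background, and of 27 HOX cluster genes 11, with HOXB9 highest at 6.19. Zinc finger genes named ZNF had 122 of 467 under background (26.1%), the share of all genes, and 2 in the high class, ZNF207 at 9.02 and ZNF644 at 8.47.

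Some genes generally known to be abundant were not in the high class. The 8 measured reference genes stood between GAPDH at 6.65 and B2M at 8.24, so 0 of them were high. GAPDH lay at or above 77.2% of genes and the elongation factor gene EEF1A1, at 6.64, at or above 77.1%. CFL1, which encodes cofilin, stood at 4.24, below the level reached by some hair genes, and ANXA2 at 7.38. GAPDH, EEF1A1 and CFL1 each had the same value on all 3 arrays. These genes limit what a low value can show: a gene under background here is one whose probe set read no signal above the array's middle, and its absence from the cells does not follow.

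The classes changed little on the other arrays, which were normalised together with the control. Of the 596 high genes 574 were also in the top 5% on the CFX array and 543 on the Mt-CFX array, and 0 were under background on either. Of the 3099 genes under background 3059 and 3064 were under it there too. No high gene differed by 1.5-fold or more with CFX (0 of 596, against 0.218% of all genes), where differences ran from −0.43 to 0.40 log2. With Mt-CFX 32 of them did (5.37%, against 2.22% of all genes), 12 higher and 20 lower. Beside these shares, 14.8% of high genes, 52.7% of all genes and 72.8% of genes under background had the same value on all 3 arrays. The 2.22% of all genes thus counts many genes with no difference at all, so the 2 shares are not on an equal footing. The widest differences with Mt-CFX were those of GFPT1, TOM1L1 and PSAT1 at 1.36, 1.22 and 1.01 log2 and ENPP1, LPCAT1 and IGFBP4 at −1.38, −1.36 and −1.29. With 1 array a group none of these differences was checked against repeats.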

How the data were processed

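Per the labels' protocols, Trizol was used for total RNA and GeneChip WT kits for amplification, fragmentation and biotin labelling. Per the submitters' processing notes, the authors used Affymetrix Expression Console and RMA, and the deposited values are log2 levels per probe set; the version, annotation release and genome build are not given in the sources used here. As background, RMA subtracts background, equalises the distributions of the arrays and fits each probe set across them.

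Probe sets were named by the platform annotation and RefSeq (GRCh38.p14), where all matched by gene ID and 0 symbols changed; 37519 unnamed probe sets were not used. Genes were ranked and counted as the report states, with no test, since each of the 3 groups had 1 array. Of 73 lists, 10 had no named member and were not used, and 6 were added after the high class was seen. Some family patterns were trimmed of genes that are no members. The members and lists were chosen with earlier results of these data known.

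Named genes were taken from the 20 highest, from the ends of each list, from a preset set and from both sides of each limit; others named in the added families, from the 9p21 run or by their differences were chosen after their values were seen, as were a few middle members of lists. No protein table was used. The alternatives were other probe sets per gene, all gene types, the mean of the arrays, and other limits. Counting was tested on simulated levels. Python 3.11.15, numpy 2.4.6, pandas 2.3.3 and matplotlib 3.10.9 were used. The number of arrays limits the precision.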

Additional observations from a re-analysis of the deposited data

How the results depend on the processing

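The counts followed the limits by which they are defined. With the top 10% or 2.5%, the high class held 1192 or 298 genes; members of the breast lineage and invasion lists (29 of 222 in the top 5%) came to 42 or 18 and those of the metabolism lists (27 of 190) to 46 or 17. Under background there were 937 genes with the limit at the 25th percentile of all probe sets (2.65), 6525 at the 75th (5.43), and 7112 at the 95th percentile of keratin-associated proteins (5.68), chosen after seeing the data; 4844 were under 3.89 among named genes of every type. Members of the breast lineage and invasion lists under these 3 limits numbered 20, 115 and 125 (65 at 3.89) and of the metabolism lists 6, 55 and 70 (18 at 3.89). With the mean or lowest of a gene's probe sets, the mean of the 3 arrays or the control array's own median as the limit, all of these counts stayed within 1.5 times. These settings could change little. Only 487 of the 11916 genes had several probe sets, 52.7% of genes had equal values on the 3 arrays, and the control median was 3.91. The size of the high class was fixed by its definition. For the 53 lists with 5 or more measured members, leaving out the 6 lists added after values were seen, 775 of 954 values stayed within 1.5 times for counts or 0.5 log2 for medians and 179 moved, 3 of them medians. The planned limit from olfactory receptor genes was not run, since no such gene was named. No paired analysis was possible because each group was 1 array and no test was made. With no replicates, signal over background sets what can be read: genes between 3.89 and 5.68 are in doubt.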

Other observations

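RNA classes other than protein-coding genes also reached the high range, at a level of 8.27 or more. Of 1398 named long non-coding RNA genes 17 did (1.22%) and 850 were under background (60.8%, against 26.0% of protein-coding genes). MALAT1, a nuclear-retained RNA, stood at 10.55, NORAD, which binds Pumilio proteins, at 9.87, CYTOR at 9.07, and the small nucleolar RNA hosts ZFAS1 and GAS5 at 9.11 and 9.03. The RNA of the RNase MRP complex, RMRP, stood at 12.28, above every named protein-coding gene, and the primate small RNA genes SNAR-B1 and SNAR-C1 at 11.17 and 10.51. Of 1072 microRNA genes 7 were in this range, 6 of them copies of the MIR3689 family with related sequences, such as MIR3689A at 10.50, and 661 were under background.

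Of 447 transcribed pseudogenes 7 were in the high range. ANXA2P2 stood at 11.79, while its parent gene ANXA2 stood at 7.38, and HNRNPA1P10 stood at 10.95. Pseudogenes and parents are nearly identical, so these probe sets cannot assign the signal to either. Of the 37519 unnamed probe sets 1414 (3.77%) lay in the high range and 21368 (57.0%) under background, and the highest value of the array, 13.01, belonged to them.

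Some genes of the high class, chosen after their values were seen, are better known from other tissues. LAPTM5, a lysosomal membrane gene of blood cells, stood at 9.78, 9.67 and 9.35 on the control, CFX and Mt-CFX arrays, SRGN, a proteoglycan of blood cell granules, at 9.15, 9.17 and 9.39, and ADGRF5, an adhesion receptor known from lung and endothelium, at 10.04, 9.86 and 8.87.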
